A study of Homo sapiens with 18 samples.

Results

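The IL6 family was examined in OVCAR3 cells, a human cell line of high-grade serous ovarian carcinoma (HGSOC), after incubation with antibodies. The 9 genes are the ligands IL6, LIF, IL11 and CLCF1, the receptor chains IL6R, IL6ST, LIFR and OSMR, and the inhibitor SOCS3. They were picked by symbol from the 55765 symbols of each of 2 tables of read counts, with earlier results of these data in view, among them the rise of IL6 with IgA of no given specificity. All 9 were present in both tables and all 9 passed the filter on low counts.

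RNA was sequenced from 18 libraries, 3 in each of 6 groups. In the first series OVCAR3 cells received non-specific human IgA, received non-specific human IgG, or had no antibody (untreated). Those of the second series received IgA against BDNF (a secreted neurotrophin), received IgA against TSPAN7 (a tetraspanin of the cell surface), or had no antibody. Every antibody was given at 0.5 µg/ml for 24 h per the labels and the methods, in RPMI medium with 2% serum, although another description of these experiments gives a shorter incubation. No group carried a genetic change, and the cells of all groups came from this 1 line. The study asked how tumour cells respond to IgA, which the polymeric immunoglobulin receptor carries through epithelial cells. The second series held neither IgG nor non-specific IgA, so each series was compared only within itself and effects of specificity and of series cannot be told apart. The replicates of the first series are described as experiments, and for the second only a general statement on biological replicates or independent experiments applies. The p-values measure the spread between these libraries.

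The IL6 family is a group of secreted cytokines, most of which signal through gp130, the shared receptor chain encoded by IL6ST. The ligands also bind a further receptor chain, such as IL6R for IL6 or LIFR for LIF, and the complex activates JAK kinases and the transcription factor STAT3. STAT3 in turn induces SOCS3, which binds gp130 and the JAKs and shuts the signal down. In epithelial ovarian carcinoma IL6 is a known autocrine and paracrine cytokine, and its gene is a classical target of NF-kB and C/EBP factors.

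The RefSeq promoter table (GRCh38.p14) held 7 of the 9 genes, in 10 entries. LIF and CLCF1 had none. The 250 bases before the start of IL6 (chr7:22726950-22727199, plus strand) and of IL11 (chr19:55370464-55370713, minus strand) are shown because these ligand genes had the largest folds with non-specific IgA among the 9. Capitals mark matches to 4 short motifs searched on both strands, NF-kB (GGGA, any 2 bases, TTCC), AP-1 (TGANTCA), STAT (TTCNNNGAA) and C/EBP (TTGCNNAA).
IL6: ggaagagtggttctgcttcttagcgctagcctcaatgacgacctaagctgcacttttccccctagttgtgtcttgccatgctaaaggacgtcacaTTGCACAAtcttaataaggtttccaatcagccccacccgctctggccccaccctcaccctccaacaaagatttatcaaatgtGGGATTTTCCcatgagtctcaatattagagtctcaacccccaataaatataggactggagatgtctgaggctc
IL11: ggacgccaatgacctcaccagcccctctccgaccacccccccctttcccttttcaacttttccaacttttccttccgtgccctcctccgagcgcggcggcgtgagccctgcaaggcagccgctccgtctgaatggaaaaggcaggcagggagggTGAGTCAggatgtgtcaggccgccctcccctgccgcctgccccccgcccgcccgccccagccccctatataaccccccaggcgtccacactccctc

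The IL6 window held an NF-kB match from -73 to -64 and a C/EBP match from -155 to -148, counted from the start of transcription. The IL11 window held an AP-1 match from -96 to -90. No 2 of these matches overlapped. Of 35116 promoter windows of this length, 1.40% held the NF-kB letters, 6.57% the AP-1 letters, 6.57% the STAT letters and 9.05% the C/EBP letters. Matches were also found in receptor genes, whose windows are not shown. A LIFR window held a STAT match from -182 to -174 and a C/EBP match from -31 to -24. Another LIFR window held a STAT match from -165 to -157. The OSMR window held a C/EBP match from -73 to -66. None of the 4 motifs was in the windows of SOCS3, IL6R or IL6ST. The SOCS3 windows (chr17:78359668-78359917 and chr17:78360926-78361175, minus strand) left sequence between them that was not searched. The absence holds for these windows only and not for the whole promoters. A match is a description of letters and not of binding.

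On GRCh37 the ligand genes lie at chr7:22765503-22771621 (IL6, plus strand), chr22:30636442-30642748 (LIF, minus), chr19:55875750-55881831 (IL11, minus) and chr11:67131639-67141648 (CLCF1, minus). The receptor genes lie at chr1:154377669-154441926 (IL6R, plus), chr5:55230923-55290850 (IL6ST, minus), chr5:38474770-38608456 (LIFR, minus) and chr5:38845960-38945698 (OSMR, plus). SOCS3 lies at chr17:76352859-76356158 (minus). All 9 are protein-coding genes, and their counts cover exons including UTRs. Whether counting used strand was not stated, and reads of antisense neighbours could be assigned to the other gene. OSMR shared 229 exon bases with RICTOR, which had between 2330 and 4867 counts per library. LIFR shared 629 exon bases with LIFR-AS1, which had between 12 and 56 counts. IL6ST shared 797 exon bases with the antisense gene ENSG00000262211 and IL6 shared 428 with IL6-AS1. LIF shared 86 with LIF-AS1 and 83 with LIF-AS2. These antisense genes had no entry under those names in the counts, and their part in the counts of IL6ST, IL6 and LIF was not tested.

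The 9 libraries of the first series held between 27920733 and 42371474 counts each, those of the second between 39254350 and 47381836. One library stood apart. In replicate 3 of the non-specific IgA group the mitochondrial genome supplied 19.1% of the counts, against 5.75% to 8.32% in the other 8 libraries of that series, and the fold changes of the 9 genes and of the called list genes named below are also given without it. None of the 9 epithelial markers was at 0. In the first series they summed to between 4538 and 7187 CPM (counts scaled to a fixed library total) with IgA, which overlapped the IgG and untreated libraries. Singly, 2 of the 9 were called higher and 2 lower with IgA, both against IgG and against untreated cells. Against IgG the 9 ran from -1.17 to 0.48 on the log2 scale. Of all genes 12.6% were higher and 11.6% lower against IgG, and 12.9% and 12.1% against untreated cells. In the second series the epithelial markers summed to between 4335 and 4447 CPM with TSPAN7 IgA, below the BDNF IgA libraries (4873 to 5870 CPM) and the untreated ones (4802 to 5157 CPM). The 7 leukocyte markers summed to at most 2.13 CPM in any library. In the first series the 7 fibroblast or mesothelial markers summed to between 68.3 and 139 CPM with IgA, between 59.2 and 65.5 CPM with IgG and between 63.8 and 70.1 CPM in untreated cells. IgA replicate 3 had the highest sum. Nearly all of it was COL1A1 and COL1A2, and DCN had at most 6 counts in any of those libraries. Against IgG the 4 markers tested had log2 fold changes from 0.55 to 0.68. COL1A1 and COL1A2 were called higher, beside 12.6% of all genes, and none of the 4 was called against untreated cells. The 3 endothelial markers present summed to at most 2.32 CPM with IgA. Of 2 tested, 1 was called higher against untreated cells, beside 12.9% of all genes. The part of these markers, and of the mitochondrial share, in the results below was not tested. In bulk RNA a change in every cell and a change in the share of cells that express a gene cannot be told apart.

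Levels were first compared between the genes per kilobase of exon, in mean CPM per kb over 3 libraries. In untreated cells of the first series the order was SOCS3 (20.7), IL6ST (14.0), OSMR (9.22), LIF (4.61), LIFR (3.32), CLCF1 (2.72), IL6R (1.66), IL11 (0.168) and IL6 (0.151). Every gene was separated from the next in all 3 libraries except IL11 and IL6, whose ranges overlapped. Untreated OVCAR3 cells thus held much mRNA for the inhibitor and the shared receptor chain and very little for IL6 itself.

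With non-specific IgA the order began with LIF (23.6), IL6ST (19.2), OSMR (13.8), SOCS3 (8.82) and IL6 (5.61). It went on with CLCF1 (3.65), LIFR (3.07), IL11 (1.47) and IL6R (1.13). LIF and IL6ST overlapped, as did SOCS3 and IL6, CLCF1 and LIFR, LIFR and IL11, and IL11 and IL6R. With IgG the order was that of untreated cells apart from IL6 (0.242) and IL11 (0.0946), which were separated from each other in all 3 libraries, and LIFR (3.57) and CLCF1 (2.86) overlapped.

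In untreated cells of the second series the order was IL6ST (18.3), SOCS3 (16.1), OSMR (9.90), LIF (9.77), CLCF1 (3.59), LIFR (2.96), IL6R (1.12), IL11 (0.552) and IL6 (0.422). OSMR and LIF overlapped there, as did IL11 and IL6. With TSPAN7 IgA it was IL6ST (19.0), LIF (13.2), SOCS3 (11.0), OSMR (10.2), CLCF1 (4.21), LIFR (2.93), IL6R (1.10), IL6 (1.08) and IL11 (0.400), so that LIF stood above SOCS3 and IL6 reached the range of IL6R. With BDNF IgA it was IL6ST (18.9), SOCS3 (13.8), LIF (11.5), OSMR (9.98), CLCF1 (3.56), LIFR (3.12), IL6R (1.15), IL11 (0.657) and IL6 (0.561), where CLCF1 overlapped LIFR and IL11 overlapped IL6.

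**Figure D1:**
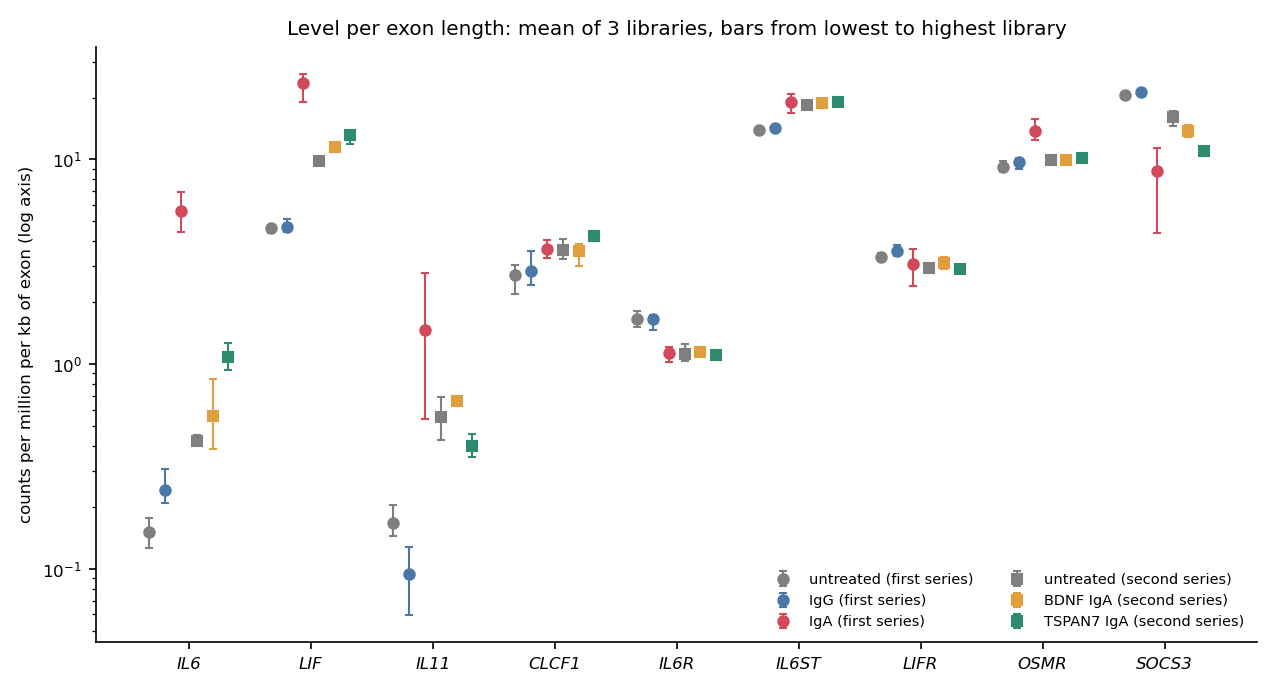
Level of each gene in CPM per kb of exon (log axis), as the mean of 3 libraries with bars from the lowest to the highest library, circles for the first series and squares for the second. In the first series IL6 moves from 0.151 in untreated cells to 5.61 with non-specific IgA. Between the same groups IL6R moves from 1.66 to 1.13 and LIFR from 3.32 to 3.07.

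The comparison of non-specific IgA with IgG and with untreated cells shows how the family differed with the IgA given. Effects of antibody class and of the preparation used cannot be told apart. This comparison was part of what chose these genes, so its values are a description. The ligands IL6, LIF and IL11 were higher with IgA by 5-fold or more, SOCS3 was lower, and the receptor chains moved little by comparison. Levels are given below as normalised counts, that is, counts scaled to the mean library size of the series, except where raw counts are named.

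IL6, the ligand that gives the family its name, had 674, 837 and 1050.5 normalised counts in the 3 IgA libraries. It had 46.7, 31.9 and 31.8 with IgG, and 22.8, 26.9 and 19.3 in untreated cells. Every IgA library of the series lay far above all the others. The fitted fold was 23.0 against IgG and 36.9 against untreated cells, a log2 fold change of 4.53 ± 0.24 (SE, n = 3 per group) against IgG and of 5.20 ± 0.25 against untreated cells. Without IgA replicate 3 it was 4.35 and 5.03.

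LIF signals through LIFR and gp130 and is best known for keeping stem cells undifferentiated. Its normalised counts were 3559, 2604 and 3501 with IgA, 699, 600.0 and 605 with IgG, and 599, 654 and 636 in untreated cells. The IgA libraries did not overlap the others, and the IgG and untreated libraries overlapped each other. Its log2 fold change was 2.34 ± 0.13 against IgG and 2.35 ± 0.13 against untreated cells (SE, n = 3), or fitted folds of 5.07 and 5.11. Leaving out IgA replicate 3 gave 2.28 and 2.29.

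IL11, a ligand with its own receptor IL11RA, was a gene of low counts. The IgA libraries held 101, 51.0 and 264 normalised counts, a spread of about 5-fold within the group. The IgG libraries held 5.60, 9.10 and 12.1 and the untreated libraries 14.5, 19.3 and 13.7. All 3 IgA libraries lay above the rest although they differed widely among themselves, with replicate 3 highest. The log2 fold change was 3.94 ± 0.59 against IgG and 3.10 ± 0.55 against untreated cells (SE, n = 3). Without IgA replicate 3 it was 3.08 and 2.25.

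CLCF1, which acts through the CNTF receptor together with LIFR and gp130, had 234, 261 and 213 normalised counts with IgA. It had 166, 231 and 158 with IgG, and 187, 198 and 143 in untreated cells. The IgA libraries lay above the untreated ones but overlapped those with IgG. Its log2 fold changes of 0.35 ± 0.21 and 0.43 ± 0.21 (SE, n = 3) did not pass the threshold, and they were 0.41 and 0.50 without IgA replicate 3.

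Among the receptors, the shared chain IL6ST had 7151, 8428 and 8843 normalised counts with IgA, 6159.9, 5962 and 5991 with IgG, and 6149, 6023 and 5640.3 in untreated cells. OSMR, a receptor chain for oncostatin M, had 3326, 3142 and 3993 with IgA, 2560.1, 2507 and 2256 with IgG, and 2328, 2485 and 2183 in untreated cells. Both were higher in every IgA library. For IL6ST the log2 fold change was 0.43 ± 0.10 against IgG and 0.46 ± 0.10 against untreated cells (SE, n = 3). That of OSMR was 0.51 ± 0.11 and 0.58 ± 0.11. Leaving out IgA replicate 3 gave 0.37 and 0.39 for IL6ST and 0.40 and 0.47 for OSMR. Scaling by library size alone shifted the median of all genes by -0.23 (log2) against IgG and by -0.21 against untreated cells. Under it IL6ST stood at 0.19 and 0.24 and OSMR at 0.27 and 0.36, and the calls of IL6ST in both comparisons and of OSMR against IgG were lost.

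IL6R, the ligand-binding chain for IL6, moved the other way. Its normalised counts were 299, 283 and 251 with IgA, 428, 429.7 and 363 with IgG, and 449.6, 402 and 375 in untreated cells. All 3 IgA libraries lay below the rest, with log2 fold changes of -0.55 ± 0.15 in both comparisons (SE, n = 3) and of -0.49 in both without IgA replicate 3. Its call against IgG was lost without IgG replicate 1 (-0.52) or 2 (-0.51), and that against untreated cells without untreated replicate 1 (-0.49). LIFR, the LIF-binding chain, had 1351, 1558 and 1035 with IgA, 1519, 1442 and 1634 with IgG, and 1416, 1364 and 1487 in untreated cells. Its groups overlapped, at -0.22 ± 0.13 and -0.11 ± 0.13, or -0.08 and 0.03 without IgA replicate 3.

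SOCS3, the feedback inhibitor of gp130 signalling and itself a STAT3 target, was lower with IgA. Its normalised counts were 1029, 1100.2 and 420.2 with IgA, 2108, 2031 and 2048 with IgG, and 1984, 1983 and 2024 in untreated cells. The IgG and untreated libraries were tightly grouped, all IgA libraries lay below them, and IgA replicate 3 was lower than the other IgA libraries by more than 2-fold. The log2 fold change was -1.27 ± 0.24 against IgG and -1.22 ± 0.24 against untreated cells (SE, n = 3). Without that library it was -0.96 and -0.91.

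**Figure D2:**
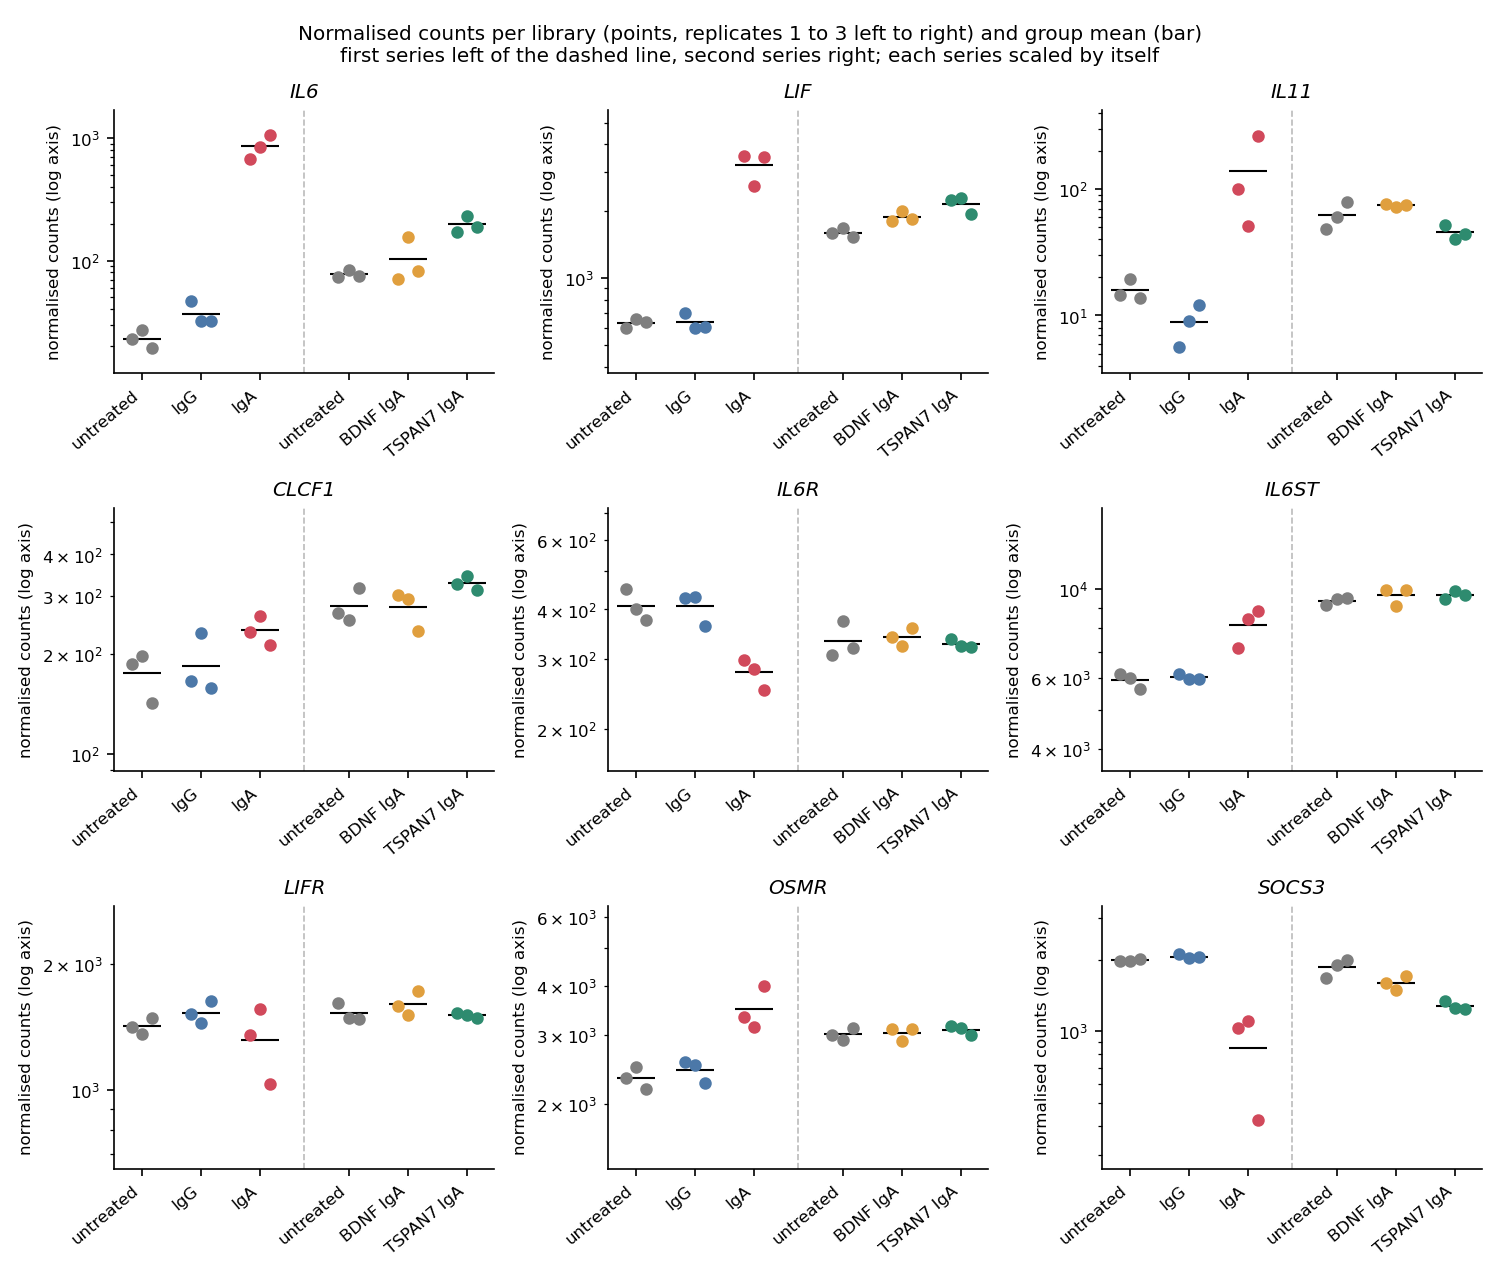
Normalised counts (log axis) of the 9 genes in all 18 libraries, with replicates 1 to 3 from left to right in each group and a bar at the mean. Within the first series the IgA libraries stand above the others for IL6, LIF and IL11 and below them for SOCS3 and IL6R. IgA replicate 3 is the lowest library of that series for SOCS3, IL6R and LIFR.

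In the first series 5 of the 9 genes were called higher and 2 lower with IgA against IgG, at an adjusted p under 0.05 in edgeR. Over all 18012 genes tested the shares were 12.6% and 11.6%, or 2265 and 2095 genes. With scaling by library size alone these became 873 and 3631 genes, and 3 of the 9 were called higher and 2 lower. Of the 9 genes, 7 had no overlap between the groups, against 40.3% of all genes. Against untreated cells 5 were again higher and 2 lower, where the shares over all genes were 12.9% and 12.1%, and 8 of the 9 had no overlap, against 39.9%. With scaling by library size alone the numbers of all genes against untreated cells were 1001 higher and 3296 lower, in place of 2316 and 2187. These comparisons share the IgA libraries and informed the choice of the genes, so nothing is read from the counts.

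IgG, the antibody of another class given in that series, was also compared with untreated cells. No gene of the 18012 was called by edgeR (0%), and 89 (0.494%) had an unadjusted p under 0.05. DESeq2 called 0 genes, with 139 at an unadjusted p under 0.05. Of the 9 genes, IL6 had the lowest unadjusted p. All 3 IgG libraries of IL6 lay above the untreated ones, with a log2 fold change of 0.68 ± 0.27 (SE, n = 3, edgeR adjusted p = 1.00). IL11 was the reverse, at -0.84 ± 0.62 with raw counts of 6, 10 and 11 against 14, 23 and 17. SOCS3 did not overlap either but differed by only 0.05 ± 0.24. These 3 of 9 genes without overlap compare with 6.75% of all genes. The other 6 had log2 fold changes from -0.00473 to 0.11, each smaller than its standard error.

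**Figure D3:**
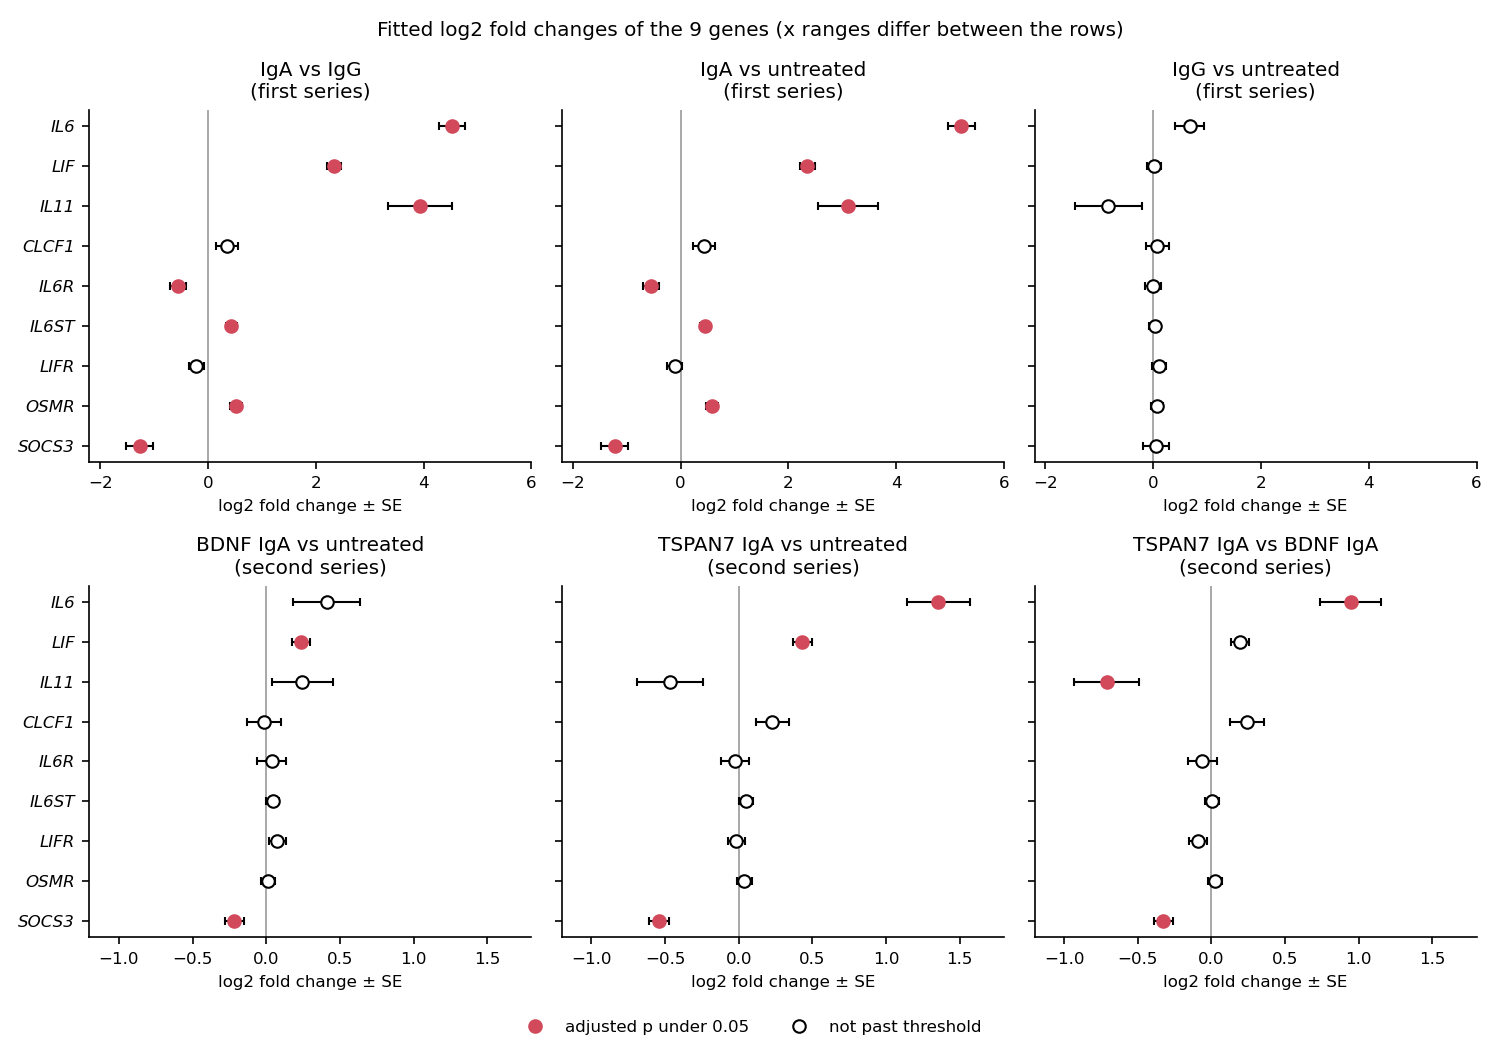
Log2 fold change with its standard error for the 9 genes in 6 comparisons, filled where the edgeR adjusted p was under 0.05, with the first series above and the second below on a narrower axis. IL6 and LIF lie to the right and SOCS3 to the left with non-specific IgA and with TSPAN7 IgA, and the 4 receptors stay near 0 throughout the second series.

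The second series asked the same of IgA with a known antigen. Against their shared untreated libraries, LIF was higher with both antibodies, IL6 was higher with TSPAN7 IgA, SOCS3 was lower with both, and none of the receptors passed the threshold. The changes were smaller than 3-fold. The spread between libraries was also smaller than in the first series, with a common dispersion of 0.00303 against 0.0307.

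IL6 had 172, 233 and 188 normalised counts with TSPAN7 IgA and 73.9, 82.9 and 75.0 in untreated cells. The TSPAN7 libraries all lay above the untreated ones, by a log2 fold change of 1.35 ± 0.22 (SE, n = 3, edgeR adjusted p = 0.000298), or 2.56 times. With BDNF IgA the libraries held 70.7, 155 and 82.7. Of those, replicate 2 lay above every untreated library and the others did not, and the log2 fold change of 0.41 ± 0.23 (edgeR adjusted p = 0.310) fell to -0.01 without replicate 2.

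LIF had 2249.9, 2289 and 1939 normalised counts with TSPAN7 IgA, 1817, 2005 and 1840.0 with BDNF IgA, and 1593, 1676 and 1541 in untreated cells. Both treated groups lay wholly above the untreated one. The log2 fold change was 0.43 ± 0.06 with TSPAN7 IgA (edgeR adjusted p = 0.000115) and 0.24 ± 0.06 with BDNF IgA (edgeR adjusted p = 0.0239; SE, n = 3). The call with BDNF IgA was lost without untreated replicate 1 (0.23, adjusted p = 0.0836) or 3 (0.21, adjusted p = 0.107).

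IL11 had 51.9, 40.1 and 44.4 normalised counts with TSPAN7 IgA, 75.8, 72.9 and 75.1 with BDNF IgA, and 48.6, 60.7 and 78.6 in untreated cells. Each treated group overlapped the untreated one, whose libraries were the most spread. On the log2 scale the difference was -0.47 ± 0.22 with TSPAN7 IgA (edgeR adjusted p = 0.225) and 0.25 ± 0.21 with BDNF IgA (edgeR adjusted p = 0.545). CLCF1 had 327, 345 and 312 with TSPAN7 IgA, 302, 294 and 236 with BDNF IgA, and 266, 254 and 318 in untreated cells. It differed from untreated cells by 0.23 ± 0.11 (edgeR adjusted p = 0.250) and -0.02 ± 0.12 (adjusted p = 0.958), with overlap in both cases.

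None of the receptors separated from untreated cells. IL6ST ranged from 9076 to 9967 normalised counts over the 9 libraries, OSMR from 2896 to 3154, LIFR from 1478 to 1722 and IL6R from 307 to 373. Their log2 fold changes ran from -0.03 to 0.05 with TSPAN7 IgA and from 0.01 to 0.08 with BDNF IgA. The edgeR adjusted p was 0.493 or more for each of them.

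SOCS3 had 1335, 1256 and 1241 normalised counts with TSPAN7 IgA, 1596, 1498 and 1709 with BDNF IgA, and 1679.6, 1899 and 2003 in untreated cells. The TSPAN7 libraries lay below all the others, whereas BDNF replicate 3 was higher than 1 untreated library. The log2 fold change was -0.54 ± 0.07 with TSPAN7 IgA (edgeR adjusted p = 1.26e-05) and -0.22 ± 0.07 with BDNF IgA (edgeR adjusted p = 0.0449; SE, n = 3). The call with BDNF IgA was lost in 9 of 19 alternative analyses, with an adjusted p between 0.0132 and 0.217 over all of them. It was lost without BDNF replicate 1 (-0.21) or 2 (-0.17), without TSPAN7 replicate 2 (-0.22) or 3 (-0.22), and without untreated replicate 2 (-0.20) or 3 (-0.16).

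With TSPAN7 IgA 2 of the 9 genes were called higher and 1 lower, where 4.46% and 4.08% of the 18732 genes tested were called. With BDNF IgA 1 was called higher and 1 lower, against 4.49% and 3.18% of all genes. Those without overlap were 3 of 9 with TSPAN7 IgA and 1 of 9 with BDNF IgA, against 28.4% and 24.8% of all genes. The shares called were above those of all genes and the shares without overlap were close to or below them, in counts of 1 to 3 genes.

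The antigen-specific antibodies were compared directly to show whether the family responded to one more than to the other. IL6 was higher with TSPAN7 IgA than with BDNF IgA in every library, by a log2 fold change of 0.94 ± 0.21 (SE, n = 3, edgeR adjusted p = 0.00746), or 1.92 times. The call was lost without BDNF replicate 1 (0.74, adjusted p = 0.0571) or TSPAN7 replicate 2 (0.81, adjusted p = 0.0690). SOCS3 was lower in every TSPAN7 library, by -0.33 ± 0.07 (edgeR adjusted p = 0.00433). IL11 was lower too, by -0.71 ± 0.22 (edgeR adjusted p = 0.0499). That value sits at the threshold, and 11 of 19 alternative analyses lost it, with an adjusted p between 0.0344 and 0.196.

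LIF differed between the antibodies by 0.19 ± 0.06 (edgeR adjusted p = 0.0597) with overlapping libraries. Of 19 alternative analyses 5 called it, namely DESeq2 (adjusted p = 0.0484), no filter on low counts (0.0263), the replicate block (0.0274), and leaving out BDNF replicate 2 (adjusted p = 0.00764) or TSPAN7 replicate 3 (0.0180), within a range of 0.00764 to 0.284 over all of them. CLCF1 was higher in all TSPAN7 libraries, at 0.24 ± 0.11 (edgeR adjusted p = 0.209). The receptors differed by -0.09 to 0.03 and overlapped. In all, 1 of the 9 genes was called higher and 2 lower, against 3.42% and 4.50% of all genes, and 4 had no overlap, against 23.6%. Of the 9 epithelial markers 1 was called higher and 4 lower in the same comparison, and their part in these differences was not tested.

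The genes with which the family works were counted from lists that were also drawn up with earlier results known. Their values with non-specific IgA, adjusted p-values included, are therefore a description and not an independent test. Among the other ligands, OSM, IL27 and IL31 had at most 5 counts in any library and were not tested. CNTF, a neurotrophic ligand, had 9, 7 and 3 raw counts with non-specific IgA, 30, 20 and 32 with IgG, and 31, 37 and 24 in untreated cells. It was lower with IgA by 1.85 ± 0.54 on the log2 scale against IgG (edgeR adjusted p = 0.0252), and by 1.66 without IgA replicate 3. IL11RA, the receptor for IL11, had 65, 42 and 27 raw counts with IgA and 109, 122 and 122 with IgG, and it fell by 1.13 ± 0.29 on the log2 scale (edgeR adjusted p = 0.0142), or by 1.01 without that library. The other 4 receptors of the list were not called in that comparison, and 1 of them was called higher without IgA replicate 3. Over all genes 12.6% rose and 11.6% fell with IgA against IgG. In the second series none of the 3 ligands and 4 receptors tested was called against untreated cells.

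Of the genes that carry the gp130 signal, 3 of 9 tested rose and 1 fell with non-specific IgA against IgG, where 12.6% and 11.6% of all genes did, but none rose and 2 fell under scaling by library size alone. STAT5B (0.60 ± 0.14), STAT3 (0.52 ± 0.10) and JAK1 (0.35 ± 0.10) were higher and the adaptor GAB1 (-0.37 ± 0.12) lower, with edgeR adjusted p from 0.00289 to 0.0397. Without IgA replicate 3 these were 0.52, 0.44, 0.27 and -0.32, and the call of GAB1 was lost (adjusted p = 0.0713). In the second series STAT3 was at 0.04 with BDNF IgA and -0.02 with TSPAN7 IgA against untreated cells, and was not called in either comparison.

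STAT3 activity was not measured, but genes known to be induced by it were. Of 18 such genes listed, 13 passed the filter on low counts and were tested. Of the 13 tested, 11 rose and none fell with non-specific IgA against IgG, beside 12.6% and 11.6% of all genes. The median log2 fold change of the 13 was 0.80, where the median of all genes was -0.01. Without IgA replicate 3, 10 rose, and under scaling by library size alone 8 rose and 1 fell. PIM1, a survival kinase, rose most (2.13 ± 0.19, edgeR adjusted p = 1.74e-05), followed by CEBPD (1.71 ± 0.23, adjusted p = 0.000285) and BCL3 (1.62 ± 0.24, adjusted p = 0.000556). The co-repressor SBNO2 stood at 1.07 ± 0.14 (edgeR adjusted p = 0.000295). Leaving out IgA replicate 3 gave 2.01 for PIM1, 1.47 for CEBPD, 1.24 for BCL3 and 0.90 for SBNO2. SOCS3, a STAT3 target itself, was lower in those same libraries. Several of these genes are also known to respond to other signals, so their rise does not measure STAT3 alone.

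In the second series 3 of the 13 rose and none fell with TSPAN7 IgA, and 2 rose and 1 fell with BDNF IgA. Of all genes 4.46% rose and 4.08% fell with TSPAN7 IgA, and 4.49% and 3.18% with BDNF IgA. The medians were 0.09 and 0.04, against -0.000716 and 0.00223 over all genes. PIM1 rose with both (0.59 ± 0.11 each, edgeR adjusted p = 0.00116 and 0.00146). CCND1, the gene of cyclin D1, rose with TSPAN7 IgA (0.40 ± 0.06, edgeR adjusted p = 7.00e-05). CEBPD fell slightly with BDNF IgA (-0.22 ± 0.06, edgeR adjusted p = 0.0303) and was higher in TSPAN7 than in BDNF libraries (0.33 ± 0.06, edgeR adjusted p = 0.00208). In that direct comparison 3 of the 13 were called higher and 2 lower, against 3.42% and 4.50% of all genes.

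Of the 11 other negative regulators, SOCS6 rose (0.87 ± 0.13, edgeR adjusted p = 0.000595) and SOCS4 fell (-0.70 ± 0.09, edgeR adjusted p = 0.000289) with non-specific IgA against IgG, and the other 9 were not called. Of all genes 12.6% rose and 11.6% fell there, so the list did not stand out by its counts. SOCS6 stood at 0.84 and SOCS4 at -0.70 without IgA replicate 3, with 2 of the list called higher and 2 lower. Of all 18614 genes tested without that library, 2399 were higher and 2397 lower. Under scaling by library size alone 1 of the list was higher and 3 lower, beside 873 and 3631 of 18012 genes. In the second series CISH rose with BDNF IgA (0.60 ± 0.14, edgeR adjusted p = 0.0101) and SOCS2 with TSPAN7 IgA (0.54 ± 0.14, edgeR adjusted p = 0.0194). Each was the only 1 of the 11 called against untreated cells, where 4.49% of all genes rose with BDNF IgA and 4.46% with TSPAN7 IgA.

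IL6 mRNA is short-lived, and the RNase ZC3H12A (Regnase-1), the ZFP36 proteins and the Roquin proteins RC3H1 and RC3H2 are known to promote its decay. The list of 8 genes also held regulators of IL6 mRNA stability other than these decay factors. The genes called against IgG were all decay factors. Of the 8, 4 rose and 2 fell with non-specific IgA against IgG, where 12.6% and 11.6% of all genes did. The counts were 3 and 2 under scaling by library size alone and 4 and 1 without IgA replicate 3. The median of the list was 0.35. ZFP36L1 rose by 1.89 ± 0.21 (edgeR adjusted p = 7.22e-05), ZC3H12A by 1.66 ± 0.25 (adjusted p = 0.000624) and ZFP36 by 0.64 ± 0.12 (adjusted p = 0.00235) on the log2 scale. RC3H1 fell by 0.46 ± 0.10 (edgeR adjusted p = 0.00669). The log2 fold changes of these genes without IgA replicate 3 were 1.56, 1.82, 0.61 and -0.43. With each antigen-specific IgA 4 of the 8 rose and none fell, where 4.49% and 3.18% of all genes did with BDNF IgA and 4.46% and 4.08% with TSPAN7 IgA, and ZC3H12A rose by 0.43 ± 0.06 on the log2 scale with both.

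The proteases ADAM10 and ADAM17 release IL6R from the cell surface. Neither was called with non-specific IgA, at 0.11 and 0.12 against IgG. ADAM10 rose with BDNF IgA (0.22 ± 0.04, edgeR adjusted p = 0.00261) and TSPAN7 IgA (0.21 ± 0.04, edgeR adjusted p = 0.00339), and ADAM17 with BDNF IgA (0.22 ± 0.06, edgeR adjusted p = 0.0176). Over all genes 4.49% rose with BDNF IgA and 4.46% with TSPAN7 IgA.

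**Figure D4:**
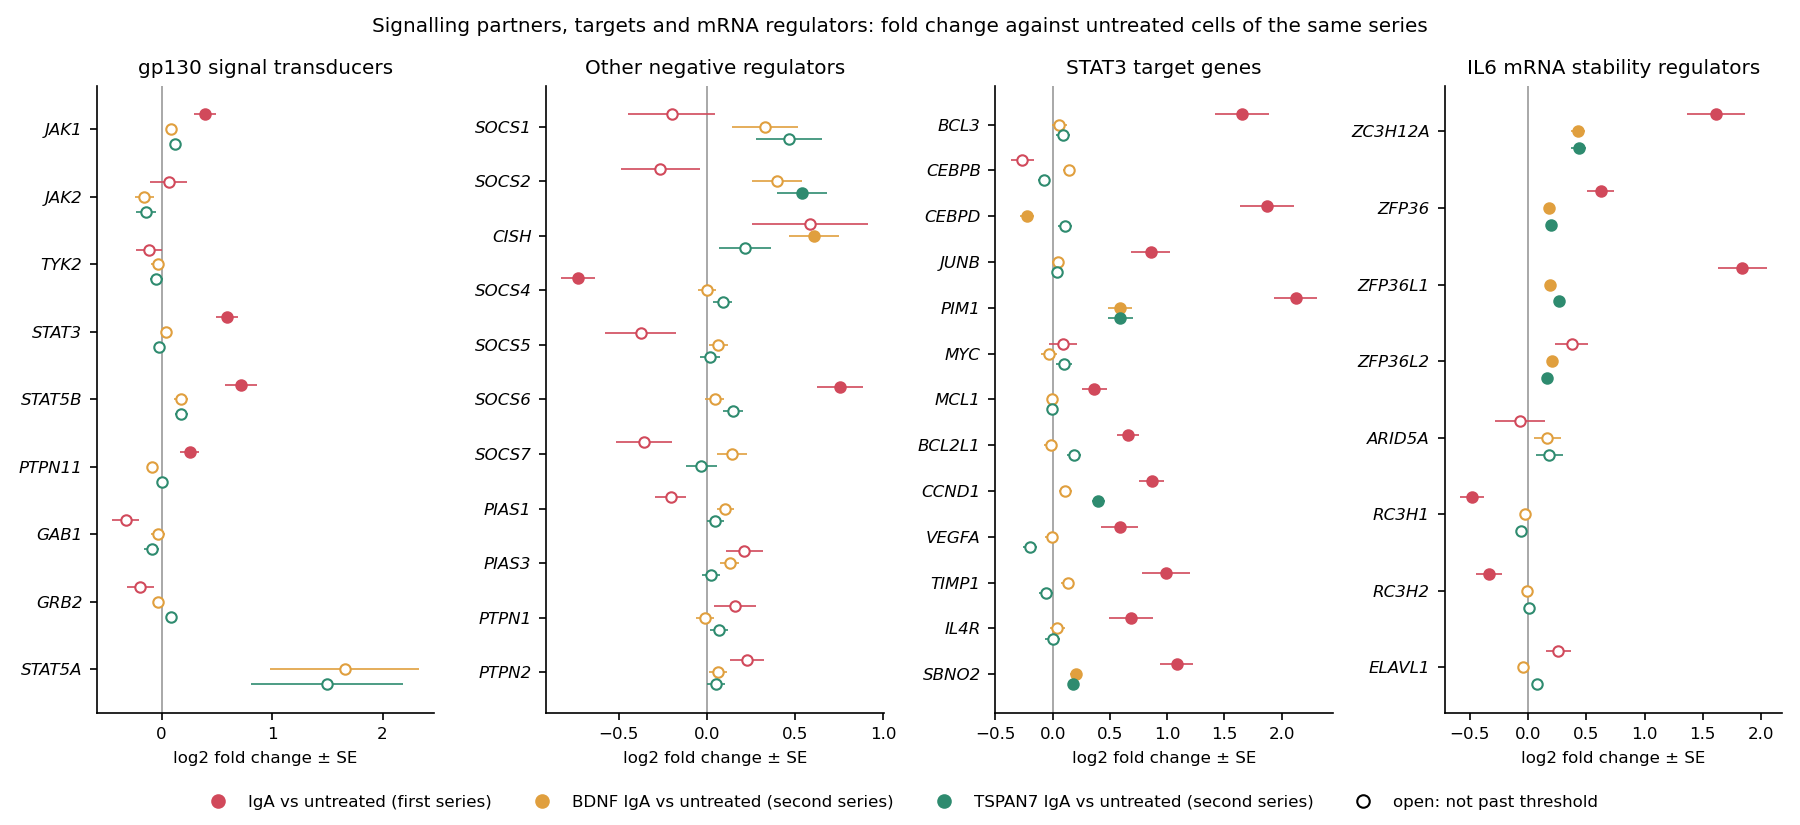
Log2 fold change with its standard error against untreated cells of the same series for the signal transducers shown, other negative regulators, STAT3 target genes and regulators of IL6 mRNA, filled where the edgeR adjusted p was under 0.05. PIM1 lies to the right for all 3 antibodies, and STAT3 is filled for non-specific IgA and open for both antigen-specific antibodies.

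The genes whose profile over the 9 libraries was most like that of IL6 were found by the root mean square difference in log2 CPM after centring on untreated cells. In the first series the nearest 5 included TNF (0.383), PTX3 (0.388), CD69 (0.605) and LTB (0.674), among 13506 genes with at least 50 normalised counts on average. TNF and LTB encode cytokines of the tumour necrosis factor family and PTX3 a secreted pentraxin. In the second series they were DKK1 (0.243), a secreted Wnt inhibitor, the non-coding CCAT1 (0.261), and the loci listed as RP11-180O5.2 (0.270), RP11-807H22.5 (0.271) and RP11-807H22.6 (0.273), among 14074 genes. No gene was named in both series.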

How the data were processed

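OVCAR3 RNA was sequenced in 18 libraries, with groups and replicate numbers as the sample titles give them. The authors deposited raw counts per gene, with no normalization. Per the methods, paired-end reads were trimmed with cutadapt, aligned to GRCh37 with STAR, and uniquely mapped reads counted with featureCounts on GENCODE genes. The submitters' processing notes list bcl2fastq 2.20.0.422, cutadapt 1.8.1 and HTSeq 0.6.1, so the counter is uncertain, and strand was not stated. The authors tested these counts with DESeq2.

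In the second series 2055 rows that repeated another row exactly, with 1.99% to 2.46% of a library's counts, were removed. Each series was then fitted once over its 9 libraries with edgeR 4.0.16 and R 4.3.3 (filterByExpr, TMM scaling and a two-sided quasi-likelihood test), and p-values were adjusted by Benjamini-Hochberg over all genes tested. Genes were called at an adjusted p under 0.05. Standard errors were derived from the fold change and its F statistic. Likeness used log2 CPM with a prior count of 2. Levels per kb used the union of exons of GENCODE on GRCh37. The scripts were tested on simulated data.

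The members and all lists were chosen with earlier results of these data known. All 9 members are named in every comparison, and of each list up to 4 called genes with the largest fold change. Results of some genes are not reported here. Because reads carried no molecular identifiers, counting error understates the error of a library, and errors come from replicate libraries. Between replicates chi-square per degree of freedom was 3.91 to 232, above sampling noise, and none was taken as a copy. Replicate numbers did not pair the libraries, with correlations of same-numbered deviations from -0.0686 to 0.247. Alternatives were DESeq2 1.42.0, other scalings and filters, a stricter threshold, only the 6 libraries compared, a replicate block, and leaving out each library.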

Additional observations from a re-analysis of the deposited data

Results flagged for a closer look

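Within the second series 3 of the 9 genes differed between the responses to TSPAN7 IgA and BDNF IgA, by the edgeR test of that difference, 1 of them higher and 2 lower, against 3.42% and 4.50% of the 18732 genes tested. IL6 was higher with TSPAN7 IgA by a log2 fold change of 0.94 (adjusted p = 0.00746), in all 3 libraries against all 3. SOCS3 was lower by -0.33 (adjusted p = 0.00433) and IL11 by -0.71 (adjusted p = 0.0499), also without overlap between the libraries. The difference of IL11 was lost in 11 of 19 alternative analyses. Both treated groups were set against the same untreated libraries, which do not enter these differences other than through the shared estimate of spread. No formal test for outlying libraries was applied to groups of 3.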

How the results depend on the processing

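Across 19 alternatives per comparison, 961 of 1026 fold changes of the 9 genes kept their direction and their side of the threshold, 39 changed side and 26 changed sign, all of these last for differences that were not called. With scaling by library size alone 3 genes were called higher with non-specific IgA than with IgG, in place of 5. Only 1 gene was called lower in that comparison when only the 6 libraries compared were fitted or the threshold was 0.01, and 1 against untreated cells at 0.01. For BDNF IgA against untreated cells no gene (0) was called lower with library size alone or with 6 libraries, and 0 were called in either direction at 0.01. For TSPAN7 IgA against BDNF IgA, DESeq2 and the replicate block each called 2 higher and 1 lower, no filter on low counts called 2 higher, and 1 was lower with DESeq2 size factors, with 6 libraries or at 0.01. The replicate block changed no other count of called genes of the 9. The cause of these changes was not tested.

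Leaving out each library in turn, the number lower with non-specific IgA ranged from 1 to 2 in both comparisons. With BDNF IgA against untreated cells the number higher ranged from 0 to 1 and the number lower from 0 to 1. For TSPAN7 IgA against BDNF IgA they ranged from 0 to 2 and from 1 to 2.

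Changes of sign were small. With upper quartile scaling IL6R stood at 0.00026 for IgG against untreated cells and IL6ST at -0.00011 between the antigen-specific antibodies. With library size alone IL6R stood at 0.0207, IL6ST at -0.00994 and, with BDNF IgA, CLCF1 at 0.00094. Leaving out 1 library at a time, LIFR ranged from -0.255 to 0.0315 for non-specific IgA against untreated cells. For IgG against untreated cells LIF ranged from -0.0633 to 0.0515, CLCF1 from -0.114 to 0.179, IL6R from -0.0664 to 0.0707 and IL6ST from -0.0148 to 0.0506. With BDNF IgA, IL6 ranged from -0.011 to 0.615, CLCF1 from -0.0824 to 0.0904, IL6R from -0.0174 to 0.125 and OSMR from -0.0107 to 0.0408. With TSPAN7 IgA, IL6R ranged from -0.0786 to 0.0639 and LIFR from -0.0381 to 0.0257. Between those antibodies IL6ST ranged from -0.0382 to 0.0268 and OSMR from -0.00409 to 0.0469.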
